A study of Mus musculus with 8 samples.

Results

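The TGF-beta and BMP genes described here are 35 protein-coding genes of the 8278 genes that the deposited table lists (7976 of the 8278 are protein-coding). They were chosen by gene symbol, with earlier results of these data known, as the ligands, receptors, co-receptors, Smads, latent ligand-binding proteins, antagonists and Id genes of these pathways. *Gdf15* was left out by that rule. The symbols also took in *Bmp1* and *Bmp2k*, which carry a BMP name but encode a protease and a kinase. The study asked which growth signals depend on HDAC3, a histone deacetylase, in the cells that line the heart, and for this it profiled a mouse cardiac endothelial cell line (MCEC) by bulk RNA-Seq. The 4 empty vector (EV) samples are MCECs with the genotype CTL, transduced with empty vector lentivirus. The 4 *Hdac3* KO samples are MCECs in which *Hdac3* was knocked out by CRISPR/Cas9 after transduction with *Hdac3* sgRNA lentivirus. Both groups were stable transduced lines kept in medium with fetal bovine serum, which itself carries growth factors, and the sources used here do not give whether the KO line is 1 clone or a pool, or whether the samples of a group were separate cultures. The study's general reporting notes speak of technical replicates for in vitro work, without naming these samples. They also say that figure legends count biological replicates, and the legend for this RNA-Seq gives n = 4 per group. The p-values below therefore measure the spread between these samples, which may be technical.

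TGF-beta and BMP ligands are secreted dimers that bring together type II and type I receptor kinases on the target cell. The activated type I receptor phosphorylates receptor-activated Smads, *Smad2* and *Smad3* on the TGF-beta and activin branch and *Smad1*, *Smad5* and *Smad9* on the BMP branch, which enter the nucleus with *Smad4*. TGF-beta is secreted in a latent form that latent TGF-beta binding proteins tether to the matrix. In the developing heart these ligands pass between the endocardium and the myocardium and act in valve formation and trabeculation.

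Every one of the 35 genes passed the cut-off of the test, 29 lower and 6 higher in *Hdac3* KO than in EV MCECs (edgeR's quasi-likelihood test, adjusted p under 0.01). The table lists only genes for which the authors' own comparison of these samples gave an adjusted p under 0.05, so nearly every listed gene passed: 96.7% in either direction, 49.6% lower and 47.1% higher. The count of genes called is therefore a description of the listed genes, and the direction is what differs from the table: 82.9% of the 35 genes were lower. Their median log2 fold change was -0.54, against 0.06 over the table. The changes were graded: 15 of the 35 were smaller than 0.5 in absolute log2 fold change. In all, 6 genes were lower by at least 1 (*Bmp15*, *Tgfb3*, *Ltbp1*, *Smad9*, *Ltbp4* and *Gdf6*), where 8.36% of the table was, and 2 were higher by at least 1 (*Acvrl1* and *Inhbe*), where 4.43% was. *Gdf6* stood at this line, at -1.01 (-1.03 to -0.99 with each library left out in turn), and the next gene outside it was *Bmp4* at -0.91. The 4 KO libraries did not overlap the 4 EV libraries in 34 of the 35 genes, with *Inhbb* the exception, beside 91.1% of the table. In bulk RNA, fewer cells that express a gene and less RNA per cell cannot be told apart.

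**Figure D1:**
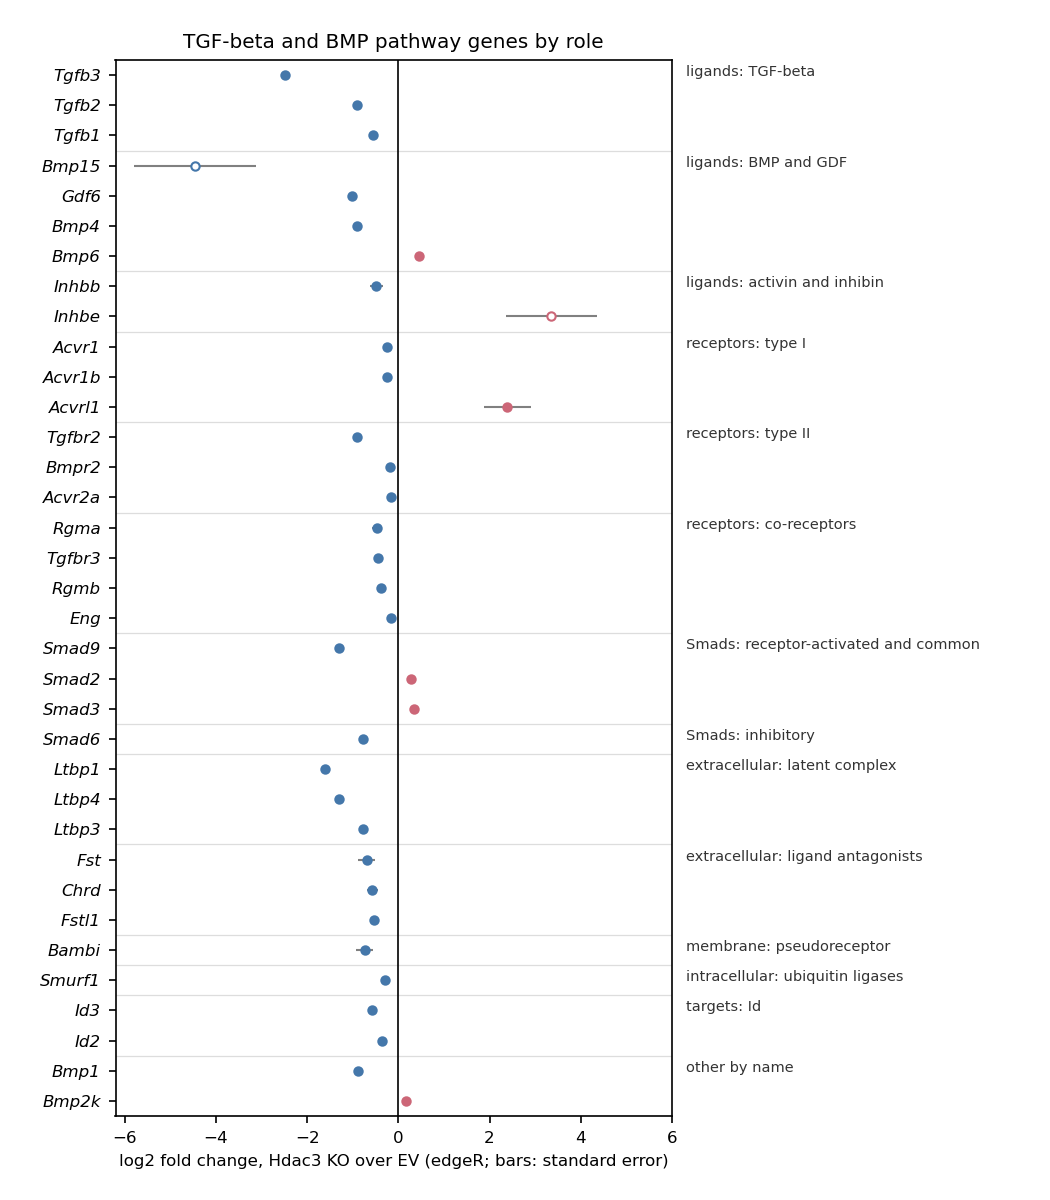
Log2 fold change of each of the 35 genes, *Hdac3* KO over EV MCECs, grouped by role (x axis; bars are the standard error derived from edgeR's test, n = 4 libraries per group). Filled blue points were lower and filled red points higher in *Hdac3* KO, and the open points of *Bmp15* and *Inhbe* rest on few reads. The point of *Acvrl1* also rests on few reads, 8 over the EV and 48 over the *Hdac3* KO libraries. Points to the left of 0 outnumber those to the right, 29 to 6, and *Tgfb3* at -2.48 stands apart from the other well-covered genes.

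Total reads per library, recovered from the deposited counts, lengths and FPKM, ran from 15775327 to 22255684, and the listed genes held 84.3% to 85.9% of them. *Hdac3* itself had a mean of 2058 ± 84.9 normalized counts in EV and 1513 ± 40.8 in *Hdac3* KO MCECs (mean ± SD, n = 4 per group), a log2 fold change of -0.45 (adjusted p = 1.0e-13, edgeR's quasi-likelihood test). RNA of the targeted gene was thus lower but still present, and the reads do not show whether it encodes protein. The study itself checked the loss of HDAC3 protein in its *Hdac3* KO MCECs by western blot against EV MCECs. Of 18 endothelial marker genes listed for a check of the cell type, 7 were in the table. Markers outside the table were not analysed here and may be unchanged or not detected. The values of the listed markers are therefore not a measure of cell type. *Pecam1*, a defining endothelial marker, had 0 to 1 reads per EV library and 2 to 9 per KO library, and *Kdr*, a VEGF receptor, had 30 to 48 and 13 to 33. *Ptprb* had the most reads of the 7, with 673 to 834 per EV library and 370 to 445 per KO library. The summed FPKM (reads scaled by the length of the gene and the reads of the library) of the 7 endothelial markers ran from 9.77 to 10.4 in EV and from 5.50 to 6.32 in *Hdac3* KO libraries. The 8 mesenchymal and smooth muscle markers in the table, of 14, summed to between 1527 and 1572 FPKM in EV and between 1154 and 1177 in *Hdac3* KO. Of these 8, 7 were lower and *Col1a1* was higher, and of the 7 endothelial markers 6 were lower and *Pecam1* was higher. Of 10 cardiomyocyte markers only *Myl7* was in the table, at 4.83 to 6.54 FPKM in EV and 1.55 to 1.84 in *Hdac3* KO libraries, and of 8 leukocyte markers only *Cd68*, at 5.36 to 5.89 and 11.1 to 12.5. The part of these marker changes in the results on the TGF-beta and BMP genes was not tested.

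All 3 TGF-beta ligand genes were lower in *Hdac3* KO MCECs with no overlap of the groups, and *Tgfb3* fell the most. *Tgfb3* (ENSMUSG00000021253), the isoform known for its part in palate and heart cushion formation, is encoded on chromosome 12 (mm10, 86056744 to 86079041, minus strand). EV replicates 1 to 4 had 4359, 4432, 4461 and 4517 normalized counts of it, reads scaled to the mean effective library size, and *Hdac3* KO replicates 1 to 4 had 838, 840, 769 and 738. The lowest EV library was thus far above the highest *Hdac3* KO library, and the samples of a group lay close together. The mean in *Hdac3* KO was 17.9% of that in EV, which gave a log2 fold change of -2.48 (SE, standard error, 0.04; adjusted p = 1.6e-34, edgeR's quasi-likelihood test). Exons of *Gm37804* and *Gm48008* on the opposite strand cover 12.4% of its exonic bases. Whether strand was used in counting is not given in the sources used here, so reads of these genes in that stretch cannot be told from those of *Tgfb3*.

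*Tgfb2* (chromosome 1, 186623186 to 186705992), the isoform of endocardial cushion mesenchyme formation, had normalized counts of 1767, 1767, 1726 and 1739 in EV and 953, 986, 895 and 905 in *Hdac3* KO libraries. It fell in every *Hdac3* KO library, to 53.4% of the EV mean, with a log2 fold change of -0.90 (SE 0.04, adjusted p = 2.3e-21). *Tgfb1* (chromosome 7, 25687002 to 25705077), the isoform that endothelial and immune cells make, had 960, 1056, 1003 and 1077 normalized counts in EV and 737, 725, 719 and 617 in *Hdac3* KO libraries. KO replicate 4 was the lowest of the 8 libraries, and the remaining KO libraries were still below every EV library. The log2 fold change was -0.55 (SE 0.05, adjusted p = 3.9e-12), and -0.49 without KO replicate 4.

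*Tgfb3* and *Tgfb1* changed places in the order of the 3 isoforms, and *Tgfb2* stayed last. FPKM is scaled by gene length, so levels of different genes can be set side by side within a library. In EV MCECs *Tgfb3* was the most abundant at 69.8 ± 0.88 FPKM, followed by *Tgfb1* at 25.04 ± 1.2 and *Tgfb2* at 19.7 ± 0.24 (SD, n = 4). In *Hdac3* KO MCECs *Tgfb1* led at 15.8 ± 1.3 FPKM, above *Tgfb3* at 11.5 ± 0.76 and *Tgfb2* at 9.70 ± 0.46 (SD, n = 4). The share of *Tgfb3* in the summed FPKM of the 3 genes was 61.2%, 60.4%, 61.5% and 60.7% in EV libraries and 31.4%, 31.4%, 30.4% and 31.5% in *Hdac3* KO libraries. No *Hdac3* KO library came near the EV range. The mean share fell from 61.0% ± 0.49 to 31.2% ± 0.51 (SD, n = 4), a difference of -29.8 percentage points (two-sided exact permutation test over 70 arrangements, p = 0.0286, the smallest that 4 against 4 libraries allow). The share of *Tgfb1* was 21.8% in EV and 42.6% in *Hdac3* KO, and that of *Tgfb2* was 17.2% and 26.3%, although both genes were lower in *Hdac3* KO. The summed level of the 3 ligands went from 115 ± 1.7 to 37.0 ± 2.3 FPKM (SD, n = 4), and FPKM here is scaled by total reads without the TMM factors used in the test.

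**Figure D2:**
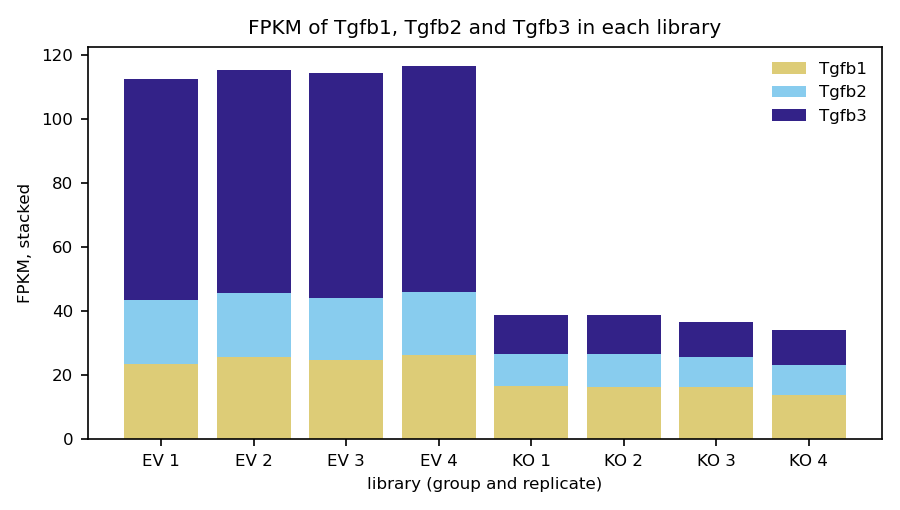
Stacked FPKM of *Tgfb1*, *Tgfb2* and *Tgfb3* (y axis) in each of the 4 EV and 4 *Hdac3* KO libraries (x axis). The bars sum to 112 to 117 FPKM in EV and to 33.9 to 38.8 in *Hdac3* KO, and the dark part, *Tgfb3*, is the most of each EV bar but less than the *Tgfb1* part of each *Hdac3* KO bar.

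The study put mmu-miR-129-5p, a miRNA that carries its seed at bases 2 to 8, into MCECs as a mimic, and its sequence is shown so that matches to it in these genes can be read. The study reports more of this miRNA in *Hdac3* KO than in EV MCECs. In its tests the mimic lowered *Tgfb3* RNA and protein, and knockdown of the miRNA in *Hdac3* KO MCECs raised TGF-beta3 protein. The mature sequence comes from RefSeq (GRCm38.p6) and is the same from *Mir129-1* (chr6:29022624-29022644, plus strand) and *Mir129-2* (chr2:94241419-94241439, minus strand). The seed is in capitals in the miRNA, and the letters GCAAAAA that pair with it are in capitals in the 2 sites below it.
mmu-miR-129-5p: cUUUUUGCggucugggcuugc
Bmpr2: tttaagaaaaaaGCAAAAAcaatgg
Smad9: gtgtgagtcttaGCAAAAAtaagac
The match in *Bmpr2* starts at base 301 of its 3′ UTR and that in *Smad9* at base 2591, in the GENCODE M21 annotation of mm10. Among the 35 genes, 3 hold GCAAAAA in the 3′ UTR (the third is *Smad2*), and 871 of the 7917 protein-coding genes of the table with a 3′ UTR do. *Bmpr2* was lower by 0.17 and *Smad9* by 1.29 on the log2 scale, and *Smad2* was higher by 0.28. The 3′ UTR of *Tgfb3*, 1035 bases in this annotation, holds 0 matches to these letters and 0 to the 6 letters that pair with bases 2 to 7, and its whole transcript of 3383 bases holds 0 matches to the 7 letters. No match says only that these letters are not in this sequence. The miRNA was not measured in these libraries.

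Of 19 BMP and GDF ligands considered 4 were in the table, of which 3 were lower and 1 was higher. *Gdf6* (chromosome 4, 9844372 to 9862345), a BMP-like ligand of joint and eye development, was among the most abundant of the 35 genes in EV MCECs, at 70.6 ± 1.8 FPKM (SD, n = 4), next to *Tgfb3*. It had 4677, 4855, 4548 and 4659 normalized counts in EV and 2267, 2314, 2280 and 2432 in *Hdac3* KO libraries. All *Hdac3* KO libraries were well below all EV libraries, with a log2 fold change of -1.01 (SE 0.03, adjusted p = 1.2e-25). *Bmp4* (chromosome 14, 46383520 to 46390669), a ligand of heart field and cushion development, fell from 934 ± 23.4 to 495 ± 22.9 normalized counts (mean ± SD, n = 4 per group), with a log2 fold change of -0.91 (SE 0.05). *Bmp6*, a ligand that endothelial cells release in iron sensing and that also acts in the cushions, went the other way, from 701 ± 69.0 to 961 ± 47.2 normalized counts (mean ± SD, n = 4 per group), with a log2 fold change of 0.45 (SE 0.05). Exons of *Txndc5* on the opposite strand cover 5.74% of the exonic bases of *Bmp6*.

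The largest fitted change of the 35 was that of *Bmp15*, a growth factor of the oocyte, and it rests on 10 reads. EV libraries had 5, 1, 1 and 3 reads and each *Hdac3* KO library had 0. EV replicate 1 held the most of these reads. With the *Hdac3* KO group set to a floor of 3 reads, the ratio of EV over KO was 3.63, a value without an interval for counting error. Without EV replicate 1 the gene no longer passed the cut-off. These few reads set no level for the gene. *Inhbe*, an activin subunit made mainly by the liver, was at the same floor, with 0, 0, 0 and 1 reads in EV and 1, 3, 5 and 7 in *Hdac3* KO libraries. The ratio of KO over EV was 14.7 (95% interval 2.28 to 616, exact, covering counting error only), the fitted log2 fold change ran from 2.97 to 4.96 with each library left out in turn, and without KO replicate 4 it did not pass the cut-off. Genes with so few reads are listed only because they passed the authors' comparison of these samples, so such values may overstate the difference. *Inhbb*, the activin B subunit, had 98.5, 106, 90.9 and 70.1 normalized counts in EV and 78.9, 69.5, 58.4 and 52.5 in *Hdac3* KO libraries. EV replicate 4 lay below KO replicate 1, so the groups overlap. The fitted log2 fold change was -0.48 (SE 0.15, adjusted p = 0.0028, edgeR's quasi-likelihood test; exact permutation p = 0.0571), and the call was lost in 5 of the other settings tried.

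**Figure D3:**
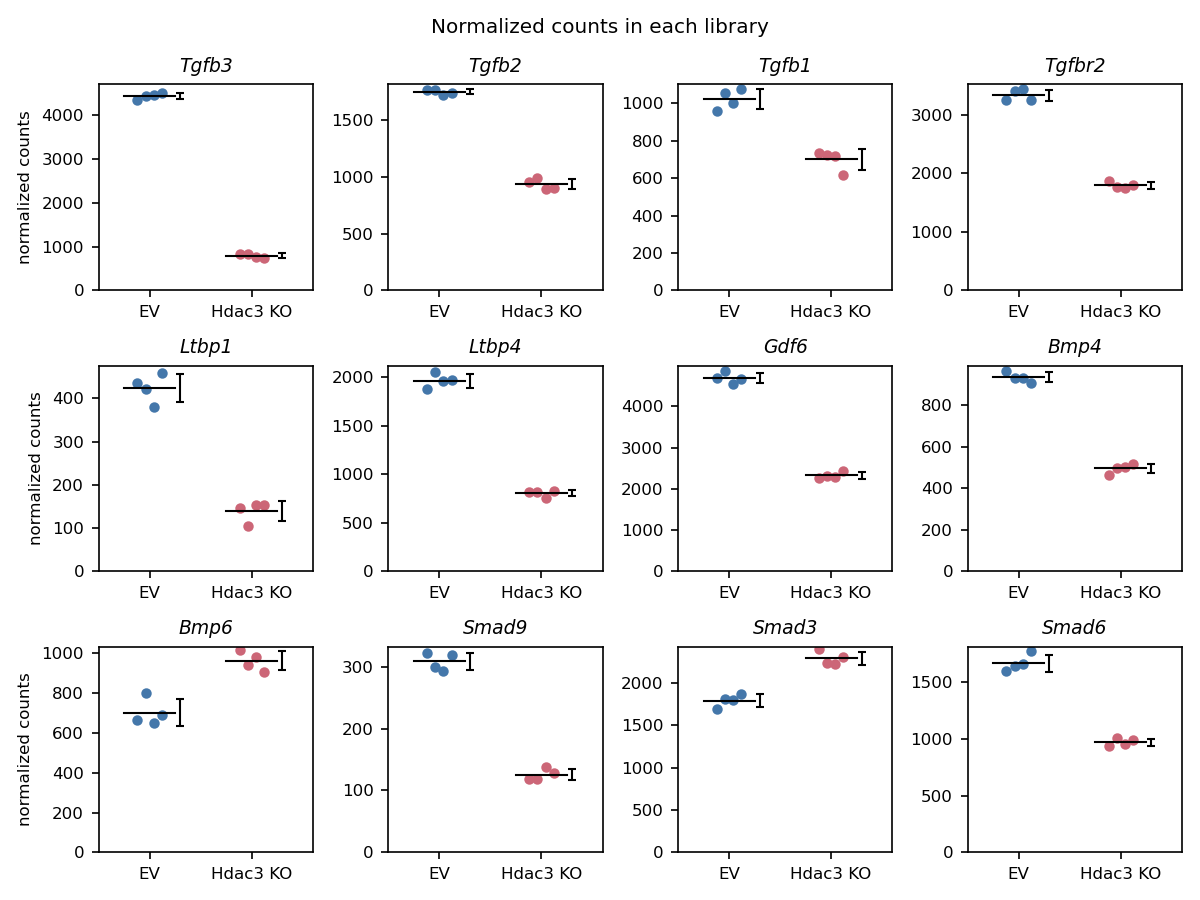
Normalized counts (y axis, from 0) of 12 of the genes in each EV library (blue) and each *Hdac3* KO library (red). Horizontal lines are group means and the bars beside them the SD (n = 4). The groups are apart in all 12 panels, with *Hdac3* KO lower in 10 and higher in those of *Bmp6* and *Smad3*.

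Of 16 receptor and co-receptor genes considered, 10 were in the table, and 9 of these were lower in *Hdac3* KO MCECs. Most of these differences were small, and that of *Tgfbr2*, the type II receptor that binds TGF-beta itself, was the largest of the lower ones. *Tgfbr2* (chromosome 9, 116087698 to 116175363) had 3249, 3402, 3430 and 3257 normalized counts in EV and 1874, 1757, 1746 and 1799 in *Hdac3* KO libraries. Every *Hdac3* KO library lay below every EV library, and the mean was 53.8% of that in EV, with a log2 fold change of -0.89 (SE 0.03, adjusted p = 2.2e-23). The other type II receptors, *Bmpr2* for BMPs and *Acvr2a* for activins, were each lower by 0.17 on the log2 scale (SEs 0.03 and 0.05). That of *Acvr2a* is close to the cut-off and was lost in 4 of the other settings tried.

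Type I receptors split. *Acvr1* and *Acvr1b*, which serve BMPs and activins, were each lower by 0.25 on the log2 scale (SEs 0.05 and 0.06), and *Acvrl1* was higher. *Acvrl1* (chromosome 15, 101128522 to 101145336), the endothelial receptor known as ALK1 for circulating BMP ligands, had 0, 3, 3 and 2 reads in EV and 10, 16, 8 and 14 in *Hdac3* KO libraries. The reads were few in both groups, but no *Hdac3* KO library had as few as any EV library. The ratio of KO over EV was 5.50 (95% interval 2.58 to 13.5, exact, counting error only), and the fitted log2 fold change was 2.39 (SE 0.51, adjusted p = 6.3e-05, edgeR's quasi-likelihood test). The gene is listed only because it passed the authors' comparison of these samples, so these values may overstate the difference. At 0.15 ± 0.04 FPKM in *Hdac3* KO (SD, n = 4), it remained far below *Acvr1* at 9.24 ± 0.19.

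The 4 co-receptor genes in the table, of 5 considered, were lower. *Tgfbr3*, betaglycan, which presents TGF-beta2 to the signaling receptors, fell from 1342 ± 8.14 to 988 ± 28.6 normalized counts (mean ± SD, n = 4 per group), by 0.44 on the log2 scale. *Rgma* and *Rgmb*, which aid BMP binding, fell by 0.46 and 0.38. *Eng*, endoglin, the endothelial partner of ALK1, fell by 0.16, from 1443 ± 58.2 to 1291 ± 30.2 normalized counts (mean ± SD, n = 4 per group). *Eng* thus had a level of 17.7 ± 0.39 FPKM in *Hdac3* KO MCECs beside the near absence of reads of *Acvrl1* (SD, n = 4). An annotated gene on the same strand covers 4.54% of the exonic bases of *Tgfbr3*.

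Of 8 Smad genes considered 4 were in the table and 4 were not analysed here. *Smad2* and *Smad3*, receptor-activated Smads of the TGF-beta and activin branch, were slightly higher, and *Smad9*, a receptor-activated Smad of the BMP branch, and *Smad6* were lower. *Smad9* (chromosome 3, 54755582 to 54801257) had 322, 300, 294 and 318 normalized counts in EV and 119, 118, 137 and 128 in *Hdac3* KO libraries. The groups were far apart, and the mean in *Hdac3* KO was 40.8% of that in EV, a log2 fold change of -1.29 (SE 0.08, adjusted p = 6.2e-16). *Smad6* (chromosome 9, 63953076 to 64022059), an inhibitory Smad that BMP signaling itself induces, fell from 1664 ± 73.9 to 969 ± 30.0 normalized counts (mean ± SD, n = 4 per group), by 0.78 on the log2 scale. *Smad3* rose from 1793 ± 76.6 to 2294 ± 77.1 (mean ± SD, n = 4 per group), a log2 fold change of 0.35 (SE 0.03). *Smad2* rose from 1214 ± 68.1 to 1474 ± 56.9 (mean ± SD, n = 4 per group), a log2 fold change of 0.28 (SE 0.04). Without TMM factors, a scaling that shifts the median of all genes by -0.12 on the log2 scale, *Smad3* and *Smad2* were still higher, by 0.24 and 0.16.

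*Id2* and *Id3*, the 2 of 4 Id genes in the table, which encode inhibitors of helix-loop-helix transcription factors and are known as direct targets of BMP Smads, were both lower. *Id3* (chromosome 4, 136143497 to 136145755) was the most abundant of the 35 genes in both groups, at 132 ± 5.5 FPKM in EV and 81.8 ± 3.3 in *Hdac3* KO MCECs (SD, n = 4). Its normalized counts were 3000 to 3268 in EV and 2009 to 2186 in *Hdac3* KO libraries, a log2 fold change of -0.58 (SE 0.03, adjusted p = 2.0e-17). *Id2* (chromosome 12, 25093801 to 25096092) ran from 1121 to 1213 in EV and from 891 to 936 in *Hdac3* KO libraries, a log2 fold change of -0.36 (SE 0.04, adjusted p = 6.3e-10).

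Promoters of 26 of the 35 genes were found among the RefSeq promoters (GRCm38.p6, 250 bases before to 50 after the first start listed for each gene), and 3 are printed, those of *Id2*, *Smad6* and *Smad9*, because these BMP branch genes were lower together and each holds a motif that Smads are known to bind. The letters searched on both strands were GTCTAGAC and GGCGCC, which each read the same on both strands, and CAGACA, which shares the letters AGAC with GTCTAGAC. Each line runs from 250 bases before to 10 bases after the gene start, with the motif in capitals. The positions are chr12:25096083-25096342 on the minus strand for *Id2*, chr9:64022050-64022309 on the minus strand for *Smad6* and chr3:54755332-54755591 on the plus strand for *Smad9*.
Id2: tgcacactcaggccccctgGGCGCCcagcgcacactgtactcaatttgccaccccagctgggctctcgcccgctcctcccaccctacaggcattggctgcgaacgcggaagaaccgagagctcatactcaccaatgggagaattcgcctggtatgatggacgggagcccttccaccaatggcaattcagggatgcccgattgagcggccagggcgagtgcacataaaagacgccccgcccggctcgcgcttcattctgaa
Smad6: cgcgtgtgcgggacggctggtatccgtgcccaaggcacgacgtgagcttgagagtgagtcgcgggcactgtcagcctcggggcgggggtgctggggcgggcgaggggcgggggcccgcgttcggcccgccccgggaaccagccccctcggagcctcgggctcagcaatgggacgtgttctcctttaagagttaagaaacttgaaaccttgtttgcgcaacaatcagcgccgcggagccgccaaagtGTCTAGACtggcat
Smad9: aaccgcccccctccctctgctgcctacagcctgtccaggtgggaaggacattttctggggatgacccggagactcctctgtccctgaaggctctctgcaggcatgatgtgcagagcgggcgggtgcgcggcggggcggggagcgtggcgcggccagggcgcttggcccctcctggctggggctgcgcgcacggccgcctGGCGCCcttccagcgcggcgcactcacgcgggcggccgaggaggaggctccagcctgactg
GTCTAGAC begins 4 bases before the start of *Smad6*, the only 1 of the 26 promoters with it, and 0.211% of 27025 promoters hold it. GGCGCC begins 231 bases before the start of *Id2* and 51 before that of *Smad9*, and also in *Acvr1b*, *Bmp2k*, *Bmpr2* and *Chrd*. These are 6 of the 26, where 11.96% of all promoters hold it. CAGACA was in 4 (*Chrd*, *Ltbp3*, *Smurf1* and *Tgfb2*), where 21.0% of all promoters hold it. The promoter of *Id3* held none of the 3 motifs. *Bmp2k*, with GGCGCC, was higher and the other 5 genes with it were lower. A match of letters is a description and not a binding site.

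Of 5 genes considered for the latent complex that holds TGF-beta in the matrix, 3 were in the table, and these 3 were lower. *Ltbp1* (chromosome 17, 75005568 to 75392512), which binds latent TGF-beta and fibrillin, had 437, 422, 381 and 459 normalized counts in EV and 146, 106, 153 and 153 in *Hdac3* KO libraries. KO replicate 2 was the lowest, and all 4 KO libraries lay well below the EV range. The fitted log2 fold change was -1.61 (SE 0.09, adjusted p = 6.4e-18), and between -1.66 and -1.49 with each library left out in turn. *Ltbp4* (chromosome 7, 27305136 to 27337692), a partner of elastic fibers, had 1881, 2057, 1961 and 1967 normalized counts in EV and 813, 816, 759 and 829 in *Hdac3* KO libraries. All *Hdac3* KO libraries were far below the lowest EV library, with a mean at 40.9% of that in EV and a log2 fold change of -1.29 (SE 0.04, adjusted p = 1.9e-25). *Ltbp3*, which is needed for secretion of latent TGF-beta, fell from 6497 ± 237 to 3814 ± 210 (mean ± SD, n = 4 per group), by 0.77 on the log2 scale, and at 36.0 ± 2.0 FPKM (SD, n = 4) it was the most abundant of the 3 in *Hdac3* KO MCECs.

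Of 12 ligand antagonists considered, 3 were in the table, and these 3 were lower. *Fst*, which traps activins, *Chrd*, which traps BMPs, and *Fstl1*, a secreted follistatin-like protein, fell by 0.70, 0.57 and 0.54 on the log2 scale. *Fstl1* was abundant, at 106 ± 2.6 FPKM in EV and 67.5 ± 0.54 in *Hdac3* KO, while *Fst* was at 0.97 ± 0.10 and 0.55 ± 0.06 (SD, n = 4). *Bambi*, a decoy receptor without a kinase, fell from 55.7 ± 11.4 to 33.7 ± 5.76 normalized counts (mean ± SD, n = 4 per group), by 0.74 on the log2 scale. Its EV replicate 4 stood high at 72.7, and the other EV libraries, at 48.9 to 51.2, were still above every *Hdac3* KO library. *Smurf1*, a ubiquitin ligase that marks Smads and receptors for degradation, fell by 0.30. The genes taken in by name, *Bmp1*, the protease that cleaves procollagen and chordin, and *Bmp2k*, a kinase of endocytosis, differed in direction. *Bmp1* fell from 1763 ± 32.2 to 952 ± 37.0 normalized counts (mean ± SD, n = 4 per group), by 0.89 on the log2 scale. *Bmp2k* rose by 0.18, exons of *Paqr3* on the opposite strand cover 13.97% of its exonic bases, and without TMM factors it no longer passed the cut-off (0.06).

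Levels ordered the genes in much the same way in both groups, with *Tgfb3* the main exception. By mean FPKM *Id3* and *Fstl1* ranked 1 and 2 of 35 in both groups. *Gdf6*, *Tgfb3* and *Ltbp3* followed in EV, at 70.6 ± 1.8, 69.8 ± 0.88 and 66.6 ± 2.3 FPKM (SD, n = 4), and of these *Gdf6* and *Tgfb3* do not differ beyond their spread. In *Hdac3* KO MCECs *Ltbp3* and *Gdf6* ranked 3 and 5, and *Tgfb3* ranked 18. This move of 14 places down was the largest of the 35 genes, and *Smad3* and *Bmp6* each moved 10 places up. The spread within a group was small: over the 27 genes whose mean normalized count reached 100 in both groups, the SD was 0.61% to 16.1% of the mean, with a median of 3.96%.

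**Figure D4:**
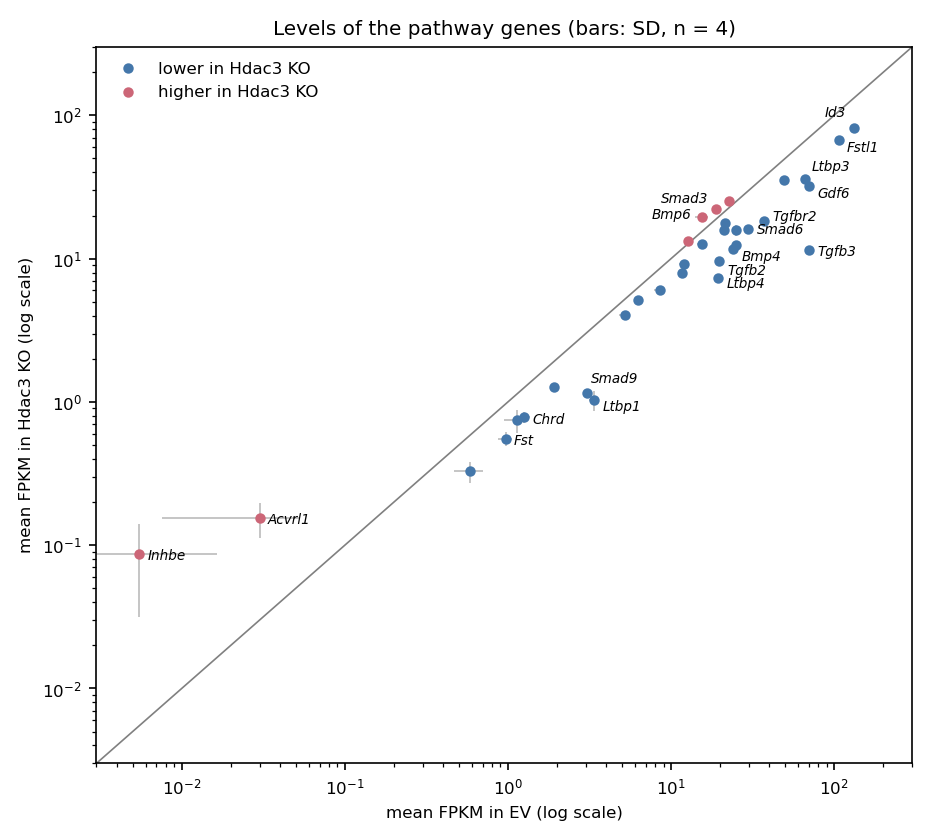
Mean FPKM in EV (x axis) and in *Hdac3* KO MCECs (y axis) of 34 of the 35 genes, both on log scales, with SD bars (n = 4). *Bmp15* is not drawn because its *Hdac3* KO value is 0. Points below the diagonal had less FPKM in *Hdac3* KO, and *Tgfb3* at 69.8 and 11.5 FPKM lies farther below it than any other gene drawn.

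Other genes of the pathway, from lists written by gene function, did not share one direction. Of 16 further ligands, antagonists and their receptors listed, 5 were in the table, and these 5 were lower: *Inha*, *Nbl1*, *Amhr2* (the receptor of anti-Mullerian hormone), *Twsg1* and *Crim1*, by 1.07, 0.67, 0.64, 0.50 and 0.20 on the log2 scale. *Nbl1*, a BMP antagonist, was the most changed of the abundant ones, at 104 FPKM in EV and 60.4 in *Hdac3* KO. Of 24 genes listed for latent ligand storage and activation 16 were in the table, of which 13 were lower and 3 higher, with a median log2 fold change of -0.61. *Mmp2*, a protease that can release TGF-beta, *Dcn*, a proteoglycan that binds it, and *Itgb8*, an integrin subunit that activates it, had the lowest values at -1.45, -1.21 and -0.84. *Dcn* also stands among the mesenchymal markers. The 3 that were higher were the extracellular proteases *Plau*, *Adamts1* and *Htra1*, at 0.82, 0.63 and 0.40.

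Genes for Smad cofactors and regulators, 27 in the table of 40 listed, were split, with 11 lower, 15 higher and *Dab2* past no cut-off, and a median of 0.15. *Ldlrad4* and *Pml*, regulators of receptor-activated Smads, and *Usp11*, a deubiquitinase, were lowest at -0.95, -0.75 and -0.62. *Atf3*, a stress-induced Smad3 partner, *Tfdp1*, a partner of E2F factors, and *Tab2*, an adapter of the TAK1 kinase, were highest at 1.23, 0.70 and 0.56. Without TMM factors 10 were higher and 11 lower, so the more frequent direction of this list turned over.

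TGF-beta target genes likewise moved both ways. Of 40 listed, 27 were in the table, and 12 were lower, 14 higher and 1 (*Junb*) not past the cut-off, with a median log2 fold change of 0.12. The contractile genes *Tagln* and *Acta2* fell from 580 ± 47.0 to 123 ± 18.3 and from 264 ± 41.9 to 66.6 ± 4.82 normalized counts (mean ± SD, n = 4 per group), log2 fold changes of -2.25 and -1.99. Both also stand among the mesenchymal markers. *P4ha3*, a subunit of collagen prolyl hydroxylase, had the lowest value at -2.57. *Cdkn1a*, the CDK inhibitor p21, rose by 1.79, and *Angptl4*, a lipase inhibitor, by 2.58 on 3 to 7 reads per EV and 24 to 34 per *Hdac3* KO library. Without TMM factors 11 of the 27 were higher and 12 lower. Known TGF-beta targets thus stood among both the most lowered and the most raised genes of these lists.

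Of 27 BMP target genes listed outside the 35 genes, 12 were in the table, of which 8 were lower and 4 higher, with a median log2 fold change of -0.52. Without TMM factors 8 were lower and 2 higher. *Tek*, the endothelial angiopoietin receptor, *Slc39a8*, a metal ion transporter, and *Tbx20*, a cardiac transcription factor, were lowest at -1.41, -1.27 and -1.24. *Ptgs2*, cyclooxygenase 2, was highest at 1.41, followed by *Efnb2*, an arterial ephrin, at 0.35 and *Gata2* at 0.25, whose groups overlap. *Runx2* stands on 2 of these lists. *Tek* is also 1 of the 6 endothelial markers that were lower.

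**Figure D5:**
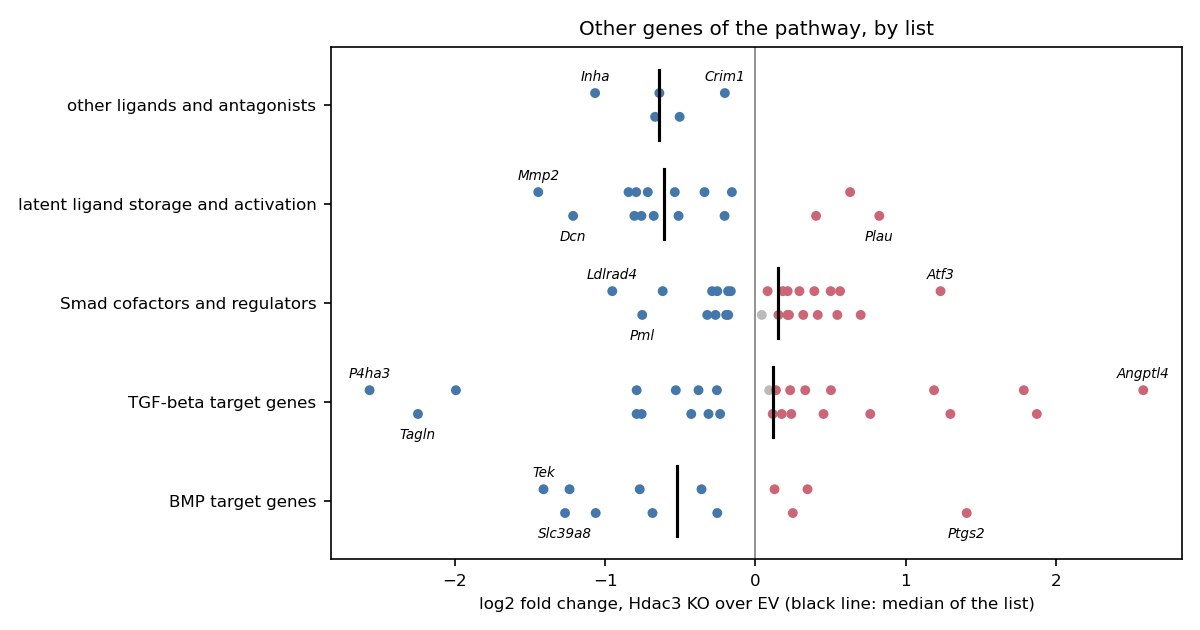
Log2 fold change, *Hdac3* KO over EV (x axis), of the genes of 5 further pathway lists (rows). Blue points were lower, red higher and gray did not pass the cut-off, and black lines are the medians of the lists. Medians run from -0.64 for the other ligands and antagonists (with their receptor *Amhr2*) to 0.15 for the Smad cofactors, and the TGF-beta targets spread from -2.57 to 2.58.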

How the data were processed

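Bulk RNA-Seq of MCECs, 4 *Hdac3* KO and 4 EV samples grouped by their titles, was analysed. A provider made the libraries (Illumina NextSeq500), and tophat2 and bowtie2 were used by the authors for alignment to mm10. The counting program and the annotation behind the counts are not given in the sources used here. The methods name cufflinks, lumi and DESeq2, and per the labels the processing notes name CASAVA and DESeq 1.6.3. The authors deposited raw read counts per gene and FPKM values (count per gene length and total reads) for 8278 genes. Their adjusted p-values, also deposited, were used only to check that every listed gene is under 0.05. Their fold changes and p-values hold their own comparison and were not used, and their separate tables of lower and higher genes were not used.

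Library totals were recovered from count, length and FPKM of genes with at least 100 counts, multiplied by TMM factors and used in edgeR 4.0.16 (quasi-likelihood test, R 4.3.3, limma 3.58.1) on all 8278 genes without a filter, with Benjamini-Hochberg adjustment over all of them and the study's cut-off of 0.01. The test was also tried on simulated data, but no result of that trial is given or used here. Standard errors were derived as the absolute log2 fold change over the square root of the F statistic of the edgeR test. Single values were compared by a two-sided exact permutation test (smallest p 0.0286). The genes described and the lists of further genes and markers were chosen with earlier results of these data known. The genes named are those with an absolute log2 fold change of at least 1, all TGF-beta ligands, receptors, Smads and Id genes, the rest by role, the 3 lowest and 3 highest of each further list past the cut-off, and *Hdac3*. *Junb*, *Dab2* and *Runx2* and the marker genes were named after their values were seen. The values of 1 gene of the further lists are not reported here. Alternatives were DESeq2 1.42.0, its size factors, no TMM factors, a filter of 10 counts in 4 libraries, a replicate block, leaving out each library, adjustment over 30000 genes, protein-coding genes only, a cut-off of 0.05 and a log2 fold change of at least 1. Genes of the pathways outside the table (49 of 84 considered) were not analysed here. Reads carry no molecular identifiers, so intervals cover counting error only. Exon overlaps and 3′ UTRs come from GENCODE M21, and promoters and the miRNA from RefSeq. Figures were drawn with matplotlib 3.10.9 (Python 3.11.15).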

Additional observations from a re-analysis of the deposited data

Results flagged for a closer look

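In 7 of 76 groups of 4 libraries, the highest or lowest library lay far from the others (its gap to the nearest library, over the range of the group, exceeded Dixon's 95% critical value), where chance gives about 1 in 20, or 3.8. *Bambi* in EV replicate 4 stood at 72.7 normalized counts, and the other EV libraries at 48.9 to 51.2. *Chrd* in KO replicate 3 had 79.1 against 65.6 to 67.7. *Eng* in EV replicate 1 had 1356 against 1462 to 1478. *Inhbe* in EV replicate 4 had 0.887, a single read, against 0. *Ltbp1* in KO replicate 2 had 106 against 146 to 153. *Tgfb1* in KO replicate 4 had 617 against 719 to 737. The share of *Tgfb3* in the summed FPKM of the TGF-beta ligands was 30.4% in KO replicate 3 against 31.4% to 31.5%. No library appears more than 2 times among the 7.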

How the results depend on the processing

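No gene of the 35 changed direction under any of the 15 settings of the fit. The count of lower genes was 27 to 29 and that of higher genes 4 to 6, apart from the requirement of an absolute log2 fold change of at least 1, which left 6 lower and 2 higher. Calls were lost for *Acvr2a* (DESeq2, and without EV replicate 4, KO replicate 1 or KO replicate 3), *Inhbb* (without EV replicate 1, EV replicate 2, KO replicate 3 or KO replicate 4, and with adjustment over 30000 genes), *Bmp2k* (no TMM factors), *Bmp15* (without EV replicate 1) and *Inhbe* (without KO replicate 4). The filter of 10 counts kept 32 of the 35 genes. With at least 1 on the log2 scale, the further lists held 1 lower gene among other ligands, antagonists and receptors, 2 lower and 0 higher for latent ligand storage and activation, 0 lower and 1 higher for Smad cofactors, 3 lower and 5 higher for TGF-beta targets, and 4 lower and 1 higher for BMP targets. Without TMM factors 2 BMP targets, 10 Smad cofactors and 11 TGF-beta targets were higher. Same-numbered libraries did not deviate together (correlations -0.093, 0.0998, -0.011 and -0.049 over 7533 genes, and 1 of 4 KO libraries correlated best with the EV library of its own number). The replicate block kept all 35 calls, and the *Tgfb3* share difference of -29.8 percentage points has an exact p of 0.125 when paired, which 4 pairs cannot go below. The causes were not tested. Depth limits *Bmp15*, *Inhbe* and *Acvrl1*, with at most 16 reads in any library.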
